A study of Mus musculus with 16 samples.

Results

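The genes described here are 9 transcription factors of β-cells and islets, Pdx1, Mafa, Nkx6-1, Nkx2-2, Neurod1, Isl1, Pax6, Rfx6 and Foxa2, chosen by symbol as the set of factors that the field uses to define β-cell and endocrine identity. All 9 were present in both deposited tables, 9 of 17361 genes in the table of the chow-fed mice and 9 of 17318 in the table of the mice on a high-fat diet (HFD). All 9 also passed the filter on low values that precedes the tests, an average of 0.5 FPKM or more (fragments per kilobase of transcript, scaled to all mapped fragments of the library). The values are bulk islet RNA-seq from 16 libraries, 4 in each of 4 groups. Flox mice were homozygous for B7-H4 alleles (gene symbol Vtcn1) with loxP sites around exon 2, and no Cre is named for them. The cKO mice carried the same floxed alleles and RIP-Cre, B6.Cg-Tg(Ins2-cre)25Mgn/J, in which the rat insulin II promoter drives Cre in β-cells. Both groups were on C57BL/6J and ate normal chow. The Ctrl and OE mice were given HFD from 6 weeks of age for 8 weeks, and then a pancreatic intraductal infusion of an AAV8 vector with B7-H4-ZSGreen under the rat Ins2 promoter (OE) or of a control virus (Ctrl). The labels call these infused mice WT, whereas the methods name Flox mice, so their genotype is uncertain here. Cre and the deletion occur together in the cKO group, so the 2 cannot be told apart.

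These factors work as a network in which most members bind the promoters or enhancers of one another and of hormone genes. Pdx1, Neurod1 and Mafa bind the A, E and C elements of the insulin promoter, Nkx6-1 and Nkx2-2 keep β-cells from taking on other endocrine fates, and Isl1, Pax6, Rfx6 and Foxa2 are shared with other endocrine cells of the islet. Foxa2 and Pdx1 also have roles outside the endocrine pancreas, and Pdx1 is present at a low level in acinar cells.

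The libraries differed in their share of acinar RNA. Relative depth, read from the step between the lowest values of a library, ranged from 0.942 to 1.08 of the median in the chow table and from 0.841 to 1.08 in the HFD table, and absolute depth is unknown. Of the 22 acinar marker genes (digestive enzymes such as Cpa1 and Cela1) 21 were in the chow table, and their share of all FPKM was 27.9%, 35.8%, 10.8% and 7.52% in Flox16, Flox17, Flox20 and Flox21. The same share was 36.7% to 46.5% in the 4 cKO libraries, 5.55%, 57.5%, 74.7% and 2.17% in Ctrl1, Ctrl2, Ctrl3 and Ctrl5, and 11.2% to 14.6% in the 4 OE libraries. The insulin genes Ins1 and Ins2, which define the β-cell, held 33.0% to 50.5% of FPKM in Flox, 24.0% to 30.4% in cKO, 3.96% to 50.8% in Ctrl and 43.0% to 47.3% in OE libraries. Ctrl5 stood apart by its share of α-cell markers, 13.6% against 0.111% to 3.50% in the other Ctrl libraries. Vtcn1 itself was at 40.0 to 128 FPKM in OE and 0.0636 to 0.371 FPKM in Ctrl libraries. In Flox and cKO libraries it lay between 0.0188 and 0.216 FPKM with overlapping groups. These values, which cover the whole gene and not exon 2 alone, could not be used to check the Flox or cKO label of any library, that of Flox16 included. In bulk islets, fewer β-cells and less RNA per β-cell cannot be told apart. Nothing in the labels says whether a library came from 1 mouse or from pooled islets, so the p-values measure the spread between these libraries.

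Per the deposited symbols and the GRCm38 annotation, the 9 genes lie on 5 chromosomes. Pdx1 (chr5:147269959-147275848, plus strand) and Nkx6-1 (chr5:101658139-101664996, minus strand) share chromosome 5. Nkx2-2 (chr2:147177546-147194243, minus strand) and Foxa2 (chr2:148042877-148046969, minus strand) are neighbours on chromosome 2, which also holds Neurod1 (chr2:79452521-79456751, minus strand) and Pax6 (chr2:105668900-105697364, plus strand). Mafa is at chr15:75745490-75748228 on the minus strand, Isl1 at chr13:116298281-116309689 on the minus strand and Rfx6 at chr10:51677756-51730432 on the plus strand. Exons of Neurod1 overlap exons of Cerkl on the same strand, and Cerkl stood at 0.598 to 13.4 FPKM in the 16 libraries against 5.85 to 84.4 FPKM for Neurod1. Exons of Nkx2-2 overlap the antisense gene Nkx2-2os, and the strand setting of the counting is not given in the sources used here, so reads of the 2 could not be separated.

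RefSeq promoter windows on GRCm38.p6, from 250 bases before the annotated start to 50 bases after it, were matched for 8 of the 9 factors. Those of Pdx1 and Rfx6 are shown because the ratio of these 2 genes to one another differs more between cKO and Flox libraries than any other ratio among the 9, and that of Ins1 because insulin transcripts are the denominator used below. Letters in capitals are the homeodomain core TAAT or the E-box CANNTG, each on either strand, and overlapping matches run together. The windows are chr5:147269847-147270146 (plus strand) for Pdx1, chr10:51685268-51685567 (plus strand) for Rfx6 and chr19:52264047-52264346 (plus strand) for Ins1. The Rfx6 window is set by the RefSeq start and lies inside the gene as positioned above, so it does not cover the start at 51677756.
Pdx1: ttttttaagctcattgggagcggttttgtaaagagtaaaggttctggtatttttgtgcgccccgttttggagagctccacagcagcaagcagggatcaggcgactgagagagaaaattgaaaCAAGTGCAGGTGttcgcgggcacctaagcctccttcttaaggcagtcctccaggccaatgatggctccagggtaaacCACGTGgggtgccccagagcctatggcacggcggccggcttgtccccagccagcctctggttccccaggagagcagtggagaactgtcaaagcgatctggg
Rfx6: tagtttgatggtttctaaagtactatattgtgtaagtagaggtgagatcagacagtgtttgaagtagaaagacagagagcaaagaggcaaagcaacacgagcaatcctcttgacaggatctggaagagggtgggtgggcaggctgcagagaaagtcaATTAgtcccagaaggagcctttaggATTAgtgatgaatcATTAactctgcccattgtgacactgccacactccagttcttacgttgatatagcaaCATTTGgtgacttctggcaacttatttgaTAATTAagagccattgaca
Ins1: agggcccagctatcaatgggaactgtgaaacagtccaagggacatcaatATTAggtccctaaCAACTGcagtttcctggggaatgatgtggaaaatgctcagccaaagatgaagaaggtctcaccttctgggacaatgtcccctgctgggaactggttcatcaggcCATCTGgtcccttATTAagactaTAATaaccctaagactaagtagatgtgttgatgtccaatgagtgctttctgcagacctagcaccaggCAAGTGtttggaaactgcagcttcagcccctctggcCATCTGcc
The Pdx1 window held 0 matches to TAAT and 3 to CANNTG, the Rfx6 window 5 and 1, and the Ins1 window 3 and 4. Of all 32851 promoter windows of this length, 58.0% held TAAT and 72.3% held CANNTG, so a match is common and describes the letters only.

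Mafa was the most abundant of the 9 per unit of length in all 16 libraries, and Nkx6-1 the second in 15 of them. Mafa, the leucine zipper factor of mature β-cells, averaged 172.6 ± 65.7 FPKM in Flox, 153 ± 18.1 in cKO, 148 ± 125 in Ctrl and 192 ± 11.9 in OE (mean ± SD, n = 4 libraries each). Nkx6-1 averaged 109 ± 29.9, 82.5 ± 20.7, 63.4 ± 46.7 and 123 ± 5.57 FPKM in the same order. In Ctrl5, Isl1 (64.6 FPKM) and Nkx6-1 (62.5 FPKM) stood in the reverse order. Nkx6-1 over Isl1 was 0.968 in that library, against 2.11, 1.98 and 1.96 in Ctrl1, Ctrl2 and Ctrl3. The 7 other factors stood between 2.69 and 84.4 FPKM. Neighbours among them, such as Isl1 (40.7 ± 9.37 FPKM) and Pdx1 (43.3 ± 15.7 FPKM) in Flox libraries, differed by less than the SD.

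**Figure D1:**
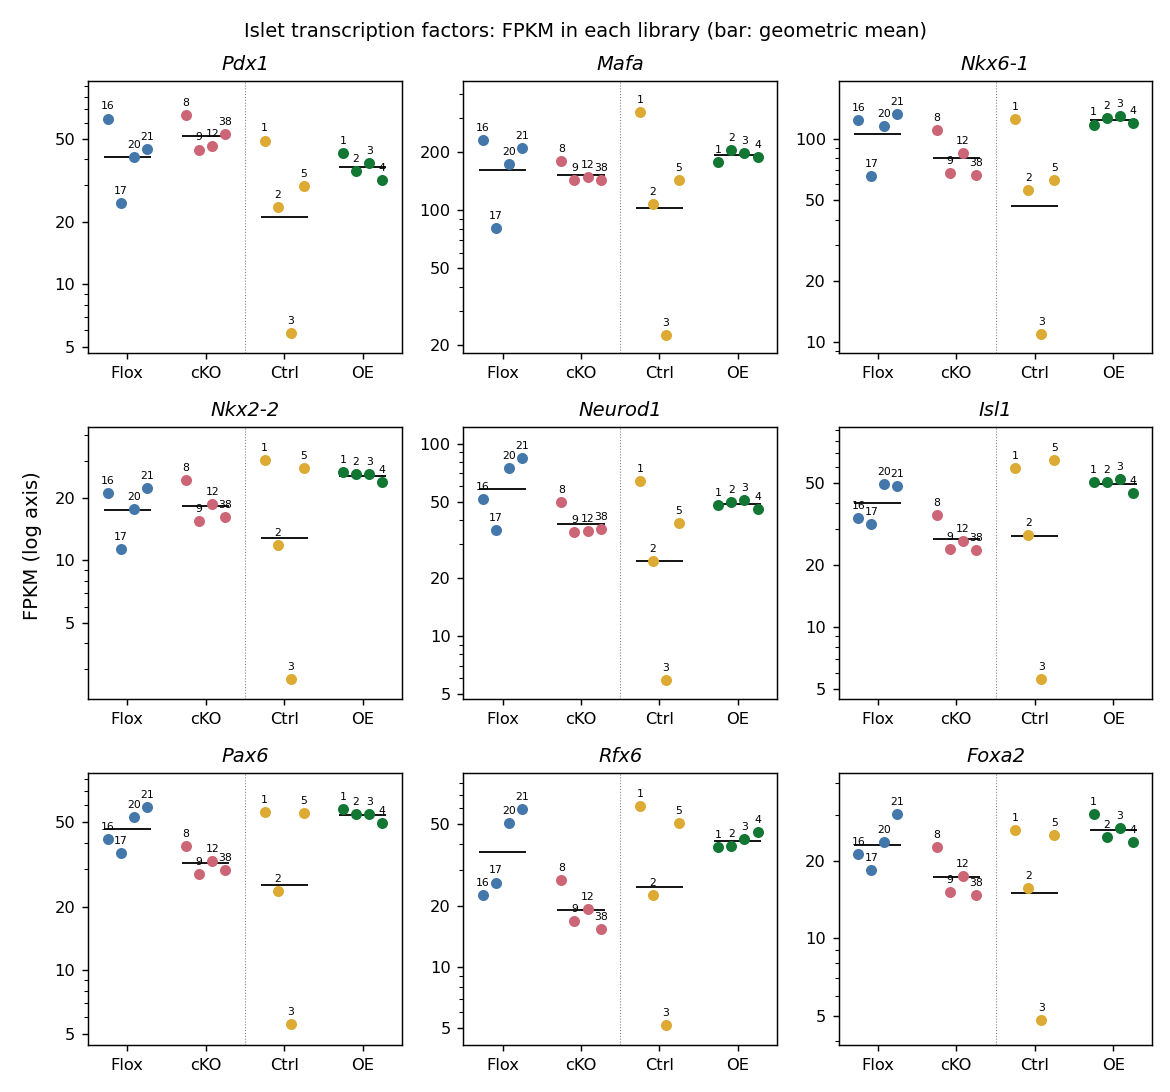
FPKM of the 9 transcription factors in each of the 16 libraries, on a log axis, by group (Flox, cKO, Ctrl, OE), with the number of each library above its point and a bar at the geometric mean. Ctrl3 is the lowest point in every panel, and the cKO points overlap the Flox points in every panel.

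The order below Nkx6-1 was not the same in the groups. Pdx1 was at rank 3 of the 9 in all 4 cKO libraries and in Flox16, but at rank 7 in Flox17, Flox20 and Flox21. Foxa2 ranked last in all 4 cKO libraries, while Nkx2-2 ranked last in all 4 Flox libraries. Pax6 was at rank 3 in 4 of 4 OE libraries and at ranks 4 to 6 in the Ctrl libraries. Ranks within a library do not depend on how the library was scaled.

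**Figure D2:**
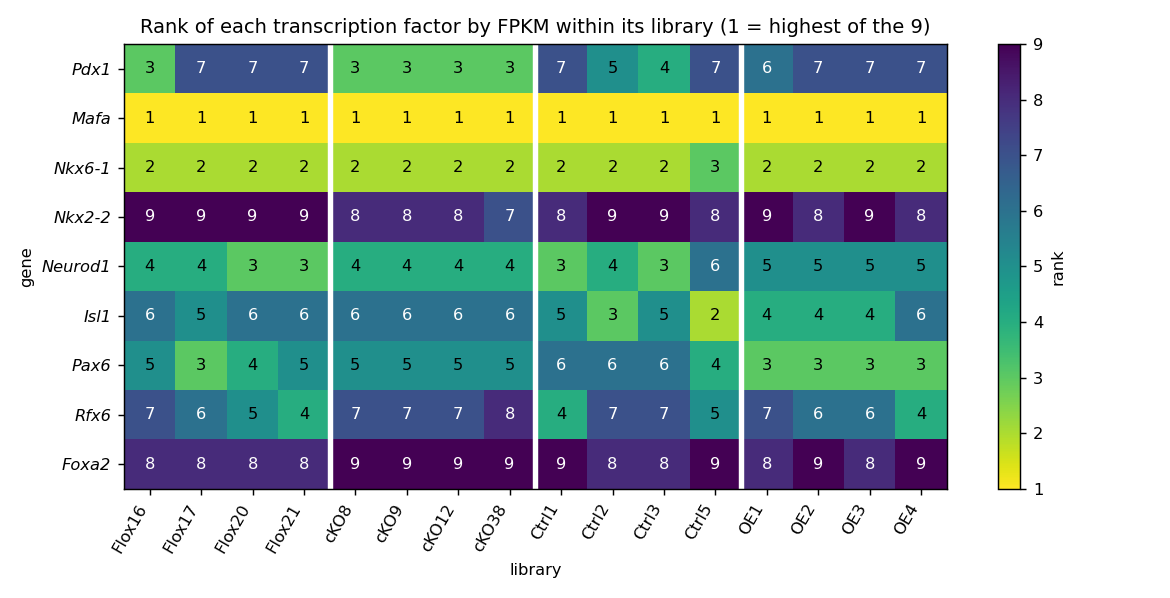
Rank of each transcription factor by FPKM among the 9 within each library, from 1 (highest) to 9, with white lines between the groups. Pdx1 is at rank 3 in the 4 cKO libraries and in Flox16, and at rank 7 in the other 3 Flox libraries.

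The first comparison, cKO against Flox, asks what loss of B7-H4 in β-cells goes along with in chow-fed islets. On the FPKM scale none of the 9 factors passed the test (limma on log2(FPKM + 0.5), adjusted p under 0.05 over 11804 genes), and 5 of 9 had an unadjusted p under 0.05, all 5 lower in cKO. Across all genes 13.8% were called and 12.8% were called lower, and 41.5% had an unadjusted p under 0.05. The median log2 fold change was -0.41 for the 9 factors and -0.34 for all genes tested. The 2 genes with values above zero were Pdx1 and Nkx2-2, and the other 7 were lower in cKO. No member had groups free of overlap, against 16.8% of all genes.

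None of the 3 insulin-gene activators had groups that stood apart. Pdx1, the homeodomain factor of pancreas formation and insulin transcription, measured 62.8, 24.6, 41.2 and 44.8 FPKM in Flox16, Flox17, Flox20 and Flox21. In cKO8, cKO9, cKO12 and cKO38 it measured 65.6, 44.6, 46.2 and 52.7 FPKM. Flox17 was the low library and the other 7 lay between 41.2 and 65.6, with a log2 fold change of 0.33 (SE 0.24, limma adjusted p = 0.276). Mafa measured 229.5, 80.5, 172.6 and 208 FPKM in the Flox and 179.9, 142, 148 and 142 FPKM in the cKO libraries. Its cKO values all lay inside the Flox range, and the log2 fold change was -0.075 (SE 0.32, limma adjusted p = 0.86). Neurod1, the basic helix-loop-helix factor that binds the insulin E-box, measured 51.3, 35.4, 74.8 and 84.4 FPKM in the Flox and 49.4, 34.7, 35.02 and 35.8 FPKM in the cKO libraries. The 2 Flox libraries of lowest acinar share, Flox20 and Flox21, were the high ones, and the log2 fold change was -0.60 (SE 0.24, limma adjusted p = 0.0847).

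Of the 2 Nkx factors, Nkx6-1 measured 123, 65.7, 115 and 133 FPKM in the Flox and 111, 67.9, 85.1 and 66.3 FPKM in the cKO libraries. The groups overlapped through Flox17 alone, and the log2 fold change was -0.38 (SE 0.23, limma adjusted p = 0.194). Nkx2-2 measured 21.2, 11.4, 17.7 and 22.3 FPKM in the Flox and 24.4, 15.4, 18.8 and 16.2 FPKM in the cKO libraries. Its highest value was in a cKO library and its lowest in a Flox library, with a log2 fold change of 0.063 (SE 0.21, limma adjusted p = 0.818).

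The remaining 4 factors, Isl1, Pax6, Rfx6 and Foxa2, were all lower in cKO without passing the test. Rfx6, a winged-helix factor needed for islet formation and for insulin secretion, measured 22.6, 25.9, 51.0 and 59.7 FPKM in the Flox and 26.6, 16.8, 19.2 and 15.3 FPKM in the cKO libraries. Its Flox libraries formed a low and a high pair, and cKO8 exceeded both of the low pair. The log2 fold change of Rfx6 was -0.92 (SE 0.32, limma adjusted p = 0.0702), the lowest of the 9. Isl1, a LIM-homeodomain factor of all islet hormone cells, measured 33.7, 31.6, 49.2 and 48.4 FPKM in the Flox and 35.05, 23.9, 26.2 and 23.7 FPKM in the cKO libraries. Only cKO8 reached the Flox range, and the log2 fold change was -0.56 (SE 0.19, limma adjusted p = 0.0501). Pax6, the paired-box activator of the glucagon and insulin genes, was at 35.6 to 59.1 FPKM in the Flox and 28.4 to 38.8 FPKM in the cKO libraries (log2 fold change -0.52, SE 0.18, limma adjusted p = 0.0543). Foxa2, the forkhead factor that opens endodermal enhancers including that of Pdx1, was at 18.4 to 30.2 FPKM in the Flox and 14.8 to 22.7 FPKM in the cKO libraries (log2 fold change -0.41, SE 0.19, limma adjusted p = 0.114).

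Which libraries entered decided the calls. With the 3 libraries per group that the study's heatmaps show, 7 of 9 factors were called lower, when 63.5% of all genes were called lower. The 2 not called were Pdx1 (log2 fold change -0.031, limma adjusted p = 0.866) and Nkx2-2 (-0.27, limma adjusted p = 0.0909). With Flox17 alone left out, 7 of 9 were called lower, against 57.2% of all genes. With Flox16 left out Isl1, Pax6 and Rfx6 were called lower, against 21.3% of all genes, and with cKO8 left out Isl1 and Pax6, against 12.9%. Without any one of the other 5 libraries 0 factors were called, but few genes of any kind were called in those fits. The counts over all genes ran from 19 of 11836 without cKO9 to 365 of 11827 without cKO12, so nothing is read from these zeros. The Flox libraries were also restricted to Flox16 and Flox17, whose acinar shares are nearest to those of the cKO libraries. Rfx6 then differed by -0.34 and Isl1 by -0.28 on the log2 scale. In that fit 0 factors and only 3 of 11664 genes were called. With the acinar share as a covariate all 9 coefficients were above zero, and 0 factors and 0 of 11804 genes were called. In that fit 35.3% of all genes were lower, and the median was 0.31 for the 9 and 0.081 for all genes. The groups do not overlap in acinar share (7.52% to 35.8% in Flox, 36.7% to 46.5% in cKO), so group and acinar share cannot be told apart.

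After median-of-ratios scaling, which sets the middle gene of every library at the same level, 0 of 9 were called, against 2.32% of all genes. On this scale Pdx1 was higher in cKO by 0.71 (SE 0.21, limma adjusted p = 0.0851) and Nkx2-2 by 0.44 (SE 0.13, limma adjusted p = 0.088) on the log2 scale, while Rfx6 was lower by -0.55 (SE 0.22, limma adjusted p = 0.154). The other 6 lay between -0.22 and 0.31, the median of the 9 was -0.031 and that of all genes -0.0023. The 95% intervals of Pax6 (-0.30 to 0.02) and Foxa2 (-0.24 to 0.17) were the narrowest of the 9 together with that of Isl1 (-0.39 to 0.02).

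**Figure D3:**
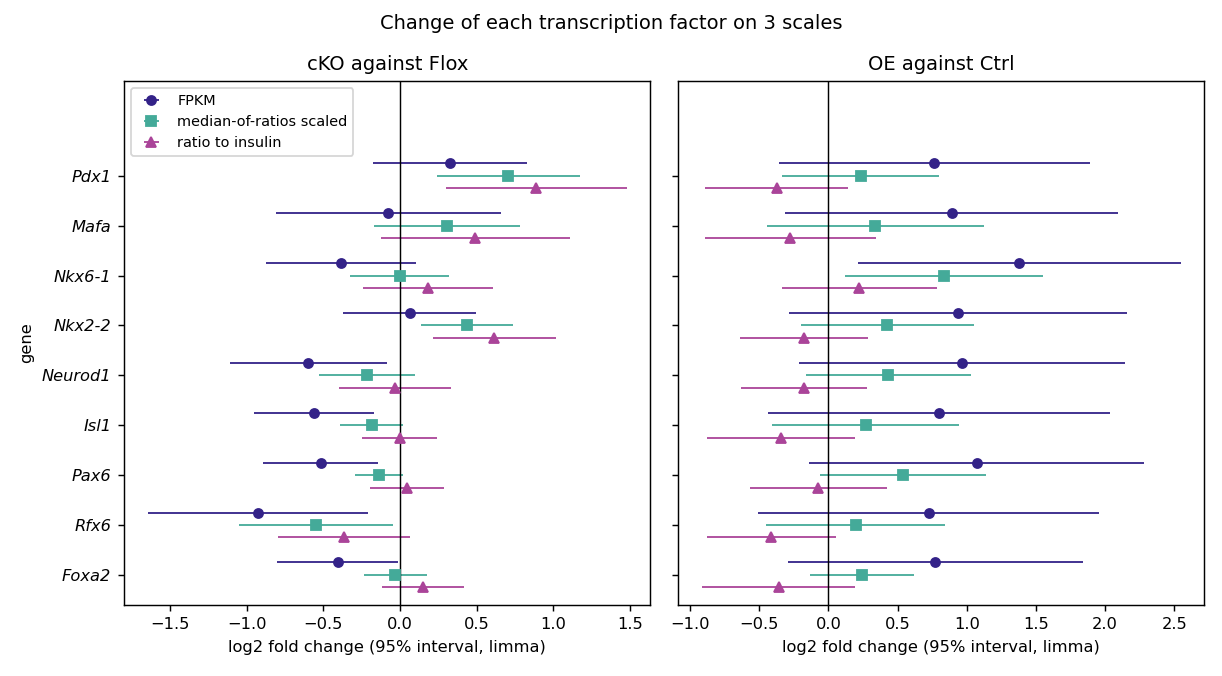
Log2 fold change of each transcription factor with its 95% interval from limma, in cKO against Flox (left) and OE against Ctrl (right), for FPKM (circles), median-of-ratios scaled FPKM (squares) and the ratio to insulin transcripts (triangles). In the left panel Pdx1 and Nkx2-2 lie to the right of zero and Rfx6 to the left on all 3 scales, and in the right panel 8 of the 9 factors change side between FPKM and the ratio to insulin.

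Set against the insulin transcripts of the same library, the 9 factors of the cKO group were not lower in sum. The ratio, given as FPKM per 100000 FPKM of Ins1 plus Ins2, summed over the 9 factors to 191 ± 51.7 in Flox and 225 ± 15.6 in cKO libraries (SD, n = 4 each). Pdx1 stood at 26.2, 9.56, 12.5 and 12.9 in Flox16, Flox17, Flox20 and Flox21 and at 29.2, 24.2, 24.2 and 28.8 in cKO8, cKO9, cKO12 and cKO38. Flox16 lay within the cKO range, and the other 3 Flox libraries were all below it. The log2 difference was 0.89 (SE 0.26, limma adjusted p = 0.0686). Nkx2-2 stood at 8.86, 4.44, 5.37 and 6.43 in the Flox and 10.9, 8.36, 9.80 and 8.85 in the cKO libraries, a log2 difference of 0.62 (SE 0.18, limma adjusted p = 0.0625). Here too Flox16 was the only Flox library inside the cKO range.

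Mafa ratios were almost equal among the cKO libraries, at 77.2 to 80.1, and spread from 31.3 to 95.9 among the Flox libraries (log2 difference 0.49, SE 0.27, limma adjusted p = 0.268). Isl1 had the same mean ratio in both groups, 13.8 ± 1.12 in Flox and 13.8 ± 1.25 in cKO (SD, n = 4 each), and the 95% interval of its log2 difference ran from -0.25 to 0.24. Rfx6 stood at 9.42, 10.1, 15.5 and 17.2 in the Flox and 11.9, 9.08, 10.03 and 8.36 in the cKO libraries, so its high values were those of Flox20 and Flox21 (log2 difference -0.37, SE 0.20, limma adjusted p = 0.242). On this scale 0 of 9 were called, against 6.38% of all genes, and the median was 0.15 for the 9 and 0.16 for all genes. With Flox16 left out, an alternative chosen after the data were seen, Pdx1 (1.18, limma adjusted p = 0.000147), Mafa (0.75, limma adjusted p = 0.0141) and Nkx2-2 (0.79, limma adjusted p = 0.00212) were called higher, 3 of 9 against 30.6% of all genes, so the share is near the background. The denominator itself differed in make-up, since Ins2 was called lower in cKO on the FPKM scale (log2 fold change -0.72, SE 0.12, limma adjusted p = 0.00744) and Ins1 was not (-0.22, SE 0.13, limma adjusted p = 0.184).

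**Figure D4:**
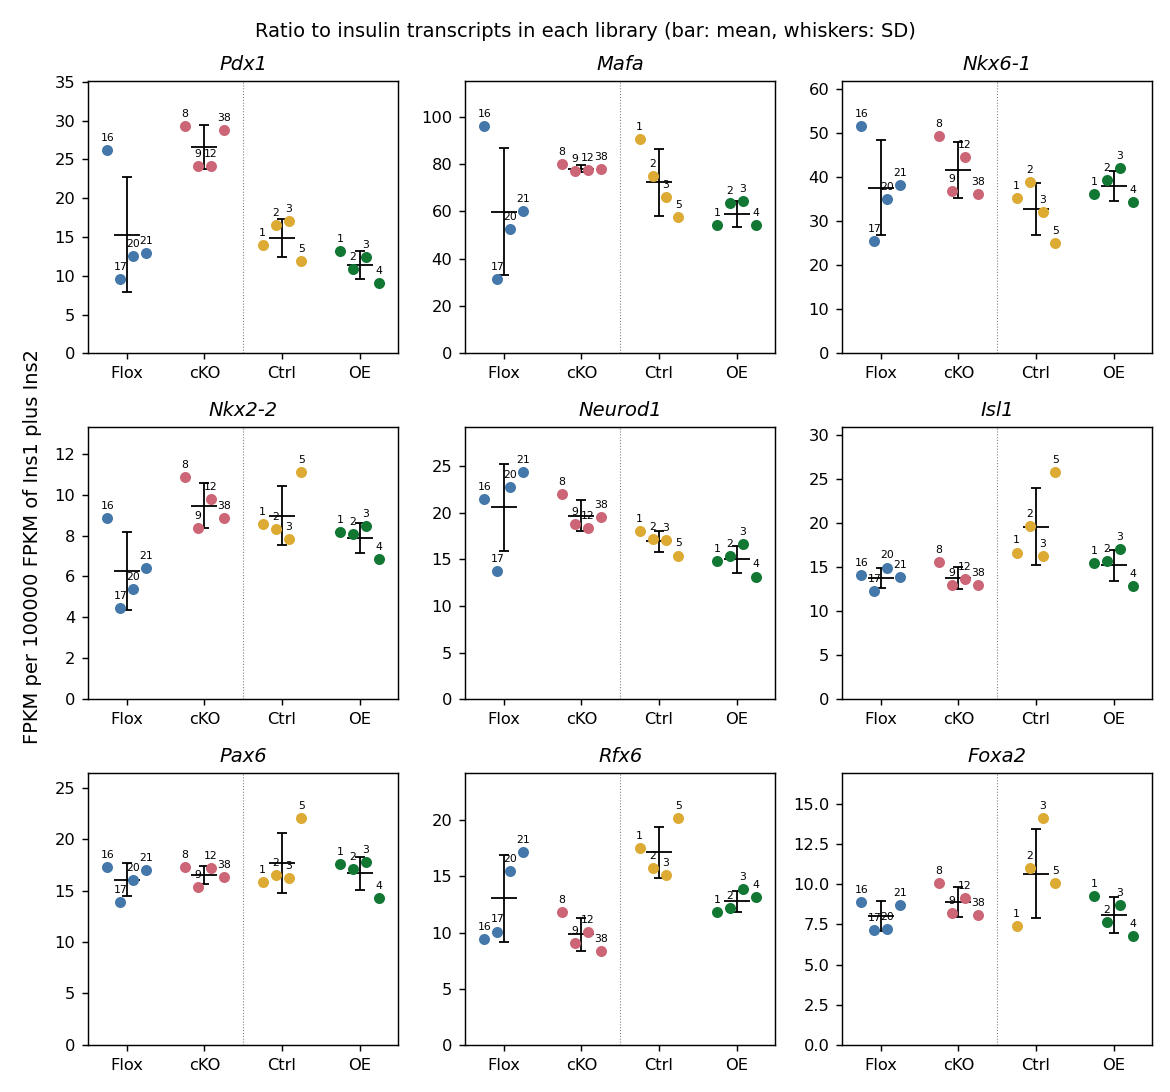
FPKM of each transcription factor per 100000 FPKM of Ins1 plus Ins2 in each of the 16 libraries, with the mean (bar) and SD (whiskers) of each group of 4. For Pdx1 and Nkx2-2, Flox16 lies with the cKO libraries above the other 3 Flox libraries.

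Ratios between 2 of the factors within a library are free of any scaling of the library. Of the 36 pairs, 8 had no overlap between cKO and Flox libraries, 22.2% against 16.3% of all gene pairs whose members both averaged 5 FPKM or more. The 36 ratios share genes and are not independent, and they were computed after other values of these genes had been seen, so they are given as descriptions with no test. Of the 8 pairs, 3 had Pdx1 and 5 had Nkx2-2. Pdx1 over Neurod1 was 1.23, 0.695, 0.550 and 0.530 in Flox16, Flox17, Flox20 and Flox21 and 1.33, 1.29, 1.32 and 1.47 in cKO8, cKO9, cKO12 and cKO38. The 3 Flox libraries other than Flox16 were below the 5 others, and Vtcn1 could not be used to check the label of Flox16. Ins1 per 100000 FPKM of Ins1 plus Ins2 was 27611 in Flox16, inside the Flox range of 24946 to 27744. In the cKO libraries it was 33824 to 34702, and whether the label of Flox16 is right was not tested. Nkx2-2 over Pax6 was 0.511, 0.320, 0.335 and 0.377 in the Flox and 0.628, 0.543, 0.571 and 0.543 in the cKO libraries. Nkx6-1 over Nkx2-2 was 5.76 to 6.53 in the Flox and 4.09 to 4.55 in the cKO libraries, and here Flox16 (5.82) lay with its own group.

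Pdx1 over Rfx6 had the largest mean difference, 1.27 on the log2 scale, and its groups overlapped because of Flox16. This ratio was 2.78 in Flox16, 0.750 to 0.947 in the other 3 Flox libraries and 2.41 to 3.45 in the cKO libraries. With Flox16 left out, a choice made after its values were seen, 26 of 36 pairs had no overlap. The share of all gene pairs without that library was 34.0%. Leaving out a library can only keep or raise such a count. With Flox17 left out, 10 of 36 had none, against 29.5%. The share of acinar markers was 27.9% in Flox16 and 35.8% in Flox17, and its part in these ratios was not tested.

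**Figure D5:**
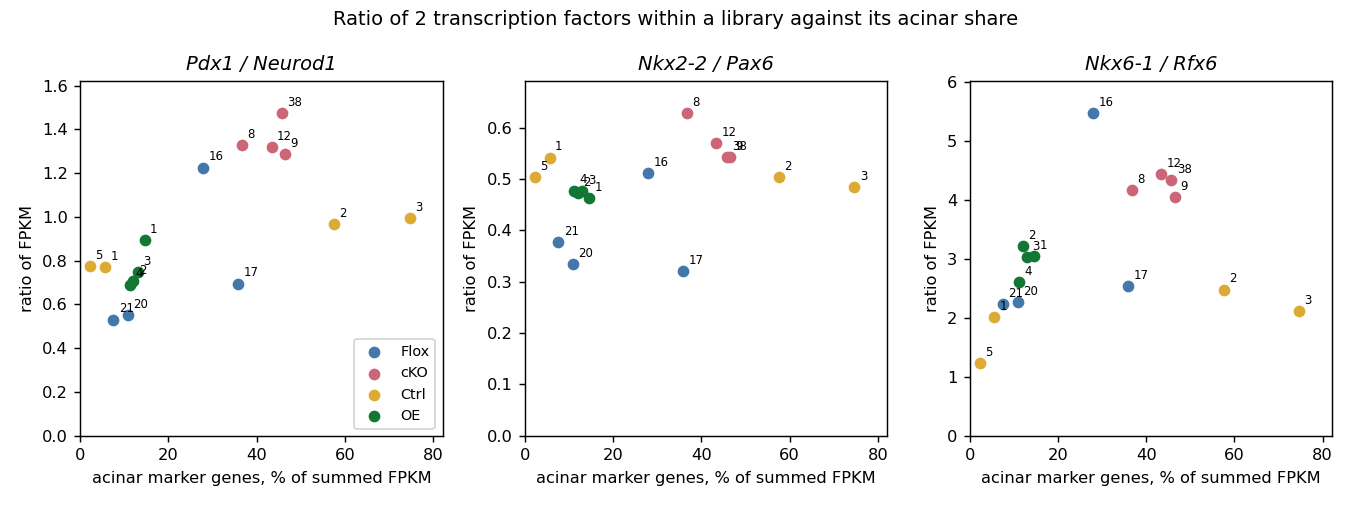
Ratio of FPKM within a library for Pdx1 over Neurod1, Nkx2-2 over Pax6 and Nkx6-1 over Rfx6, against the share of acinar marker genes in the summed FPKM of that library in percent, with 1 point per library in the colour of its group. In the left panel the 4 cKO libraries lie between 1.29 and 1.47 and Flox16 at 1.23. Flox17, Flox20 and Flox21 lie at 0.695, 0.550 and 0.530. Ctrl2 and Ctrl3, with the highest acinar shares, lie at 0.966 and 0.995, and Ctrl1 and Ctrl5, with low shares, at 0.770 and 0.774.

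The second comparison, OE against Ctrl, asks what goes along with B7-H4 delivered to β-cells of mice on HFD. All 9 factors had a higher mean log2 level in OE, by 0.73 to 1.38, and 0 of 9 were called (limma, adjusted p from 0.591 to 0.599), against 0.033% of all genes, which is 4 of 12132. At an unadjusted p under 0.05, 1 of 9 factors (Nkx6-1) and 6.41% of all genes were found. The median was 0.89 for the 9 factors and 0.44 for all genes tested. None of the 9 had groups free of overlap, against 6.58% of all genes.

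The spread lay in the Ctrl group. The sum of the 9 factors was 598 ± 20.7 FPKM in OE and 418 ± 305 FPKM in Ctrl libraries (SD, n = 4 each). Nkx6-1, the factor with the largest difference, measured 124.5, 55.7, 11.0 and 62.5 FPKM in Ctrl1, Ctrl2, Ctrl3 and Ctrl5 and 118, 126, 129 and 119 FPKM in OE1 to OE4. Ctrl1 lay within the OE range, and Ctrl3, whose acinar share is 74.7%, was lowest (log2 fold change 1.38, SE 0.56, limma adjusted p = 0.591). Pdx1 measured 49.2, 23.7, 5.82 and 29.8 FPKM in the Ctrl and 43.1, 35.01, 38.3 and 31.6 FPKM in the OE libraries (log2 fold change 0.77, SE 0.54, limma adjusted p = 0.591). Mafa measured 320.1, 107, 22.6 and 143.5 FPKM in the Ctrl and 177, 204, 197 and 188 FPKM in the OE libraries, and the highest of its 16 values was that of Ctrl1. Isl1 measured 58.9, 28.1, 5.58 and 64.6 FPKM in the Ctrl and 50.3, 50.6, 52.3 and 44.6 FPKM in the OE libraries. For Isl1 the 2 Ctrl libraries of low acinar share, Ctrl1 and Ctrl5, thus lay above all 4 OE libraries. Rfx6 did the same, with 61.8 and 50.5 FPKM in Ctrl1 and Ctrl5 against 38.7 to 45.9 FPKM in OE.

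The direction depended on Ctrl2 and Ctrl3. Without Ctrl3 the log2 fold changes ran from 0.0076 (Rfx6) to 0.70 (Nkx6-1). With only Ctrl1 and Ctrl5 as controls, a choice made after the acinar shares were seen, 7 of 9 factors were below zero. Rfx6 was then called lower in OE (-0.42, limma adjusted p = 0.0372), 1 of 9 against 21.9% of all genes, and Nkx6-1 was at 0.48 (limma adjusted p = 0.174). In that fit 2993 genes were called, and Ctrl5 is the library with the high share of α-cell markers, whose part in these values was not tested.

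After median-of-ratios scaling Nkx6-1 and Pax6 were higher in all 4 OE libraries than in all 4 Ctrl libraries, 2 of 9 against 18.5% of all genes without overlap. Scaled Nkx6-1 was 86.0, 85.5, 32.4 and 42.5 in Ctrl1, Ctrl2, Ctrl3 and Ctrl5 and 98.6 to 104 in the OE libraries (log2 difference 0.84, SE 0.31, limma adjusted p = 0.172). Scaled Pax6 was 38.6, 36.3, 16.4 and 37.5 in the Ctrl and 41.2 to 48.3 in the OE libraries (log2 difference 0.54, SE 0.26, limma adjusted p = 0.258). Neither was called, and 0.0577% of all genes were called on this scale. The median was 0.34 for the 9 factors and -0.0039 for all genes.

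Per insulin transcript 8 of the 9 factors were lower in OE and Nkx6-1 was higher (log2 difference 0.22, SE 0.25, limma adjusted p = 0.484), with 0 called against 0.0247% of all genes. The median was -0.28 for the 9 factors and -0.54 for all genes, so the factors were lower by less than the middle gene was. Rfx6 was the factor without overlap on this scale, 1 of 9 against 27.3% of all genes. Its ratio was 17.5, 15.7, 15.2 and 20.2 in Ctrl1, Ctrl2, Ctrl3 and Ctrl5 and 11.9, 12.2, 13.9 and 13.2 in OE1 to OE4 (log2 difference -0.41, SE 0.21, limma adjusted p = 0.205). The 4 Ctrl libraries, which differed by up to 11.9-fold in Rfx6 FPKM, thus lay within 15.2 to 20.2 once set against insulin. For Pdx1 the ratio was 11.9 to 17.0 in the Ctrl and 9.08 to 13.2 in the OE libraries (log2 difference -0.37, SE 0.23, limma adjusted p = 0.247).

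Of the 36 ratios between factors, 7 had no overlap between OE and Ctrl libraries, 19.4% against 19.0% of all gene pairs, so the share is near the background. Of the 7, 5 had Nkx6-1, higher in OE than in Ctrl against Pdx1, Mafa, Neurod1, Isl1 and Rfx6. Nkx6-1 over Rfx6 was 2.01, 2.48, 2.11 and 1.24 in Ctrl1, Ctrl2, Ctrl3 and Ctrl5 and 3.04, 3.22, 3.03 and 2.60 in OE1 to OE4. Nkx6-1 over Isl1 was 0.968 to 2.11 in the Ctrl and 2.34 to 2.68 in the OE libraries. In both ratios all 4 Ctrl libraries lay below the OE libraries. No Ctrl library had an acinar share within the OE range of 11.2% to 14.6%, and the part of acinar share in these ratios was not tested. Without Ctrl3 7 pairs had no overlap, against 23.5% of all gene pairs, and without Ctrl5 14 pairs, against 26.9%.

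Genes that these factors are known to regulate were counted from a list of 14. In cKO against Flox 7 of 14 were called lower and 0 higher on the FPKM scale, with a median log2 fold change of -0.60, against 12.8% of all genes called lower and a median of -0.34. Among those of largest size were Ucn3, a peptide of mature β-cells (-1.08, SE 0.24, limma adjusted p = 0.0273), and Syt7, a calcium sensor of secretion that was not called (-0.82, SE 0.28, limma adjusted p = 0.0617). Slc2a2, Slc30a8, Iapp, Pcsk2 and Ero1b were also called. After median-of-ratios scaling 0 of 14 were called, with a median of -0.22. Per insulin transcript 0 were called lower and 1 higher (Pcsk1), with a median of -0.034. Of 10 β-cell markers 6 were called lower on the FPKM scale, with a median of -0.57. Higher means in cKO were found for 3 of the 10, the largest for Nupr1 (1.34, SE 0.51, limma adjusted p = 0.106). After median-of-ratios scaling 0 of 10 were called, with a median of -0.19. Per insulin transcript 0 were called, with a median of -0.0034. Ucn3, Slc2a2, Slc30a8, Iapp and Ero1b are on both lists, so the counts of the 2 lists are not independent. In OE against Ctrl all 14 had higher means, by 0.62 to 1.65 on the log2 scale, and 0 were called.

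The other transcription factors were counted in the same way. The shares of these lists called lower in cKO were near or below the 12.8% of all genes, and nothing is read from them. Of 11 tested β-cell factors and cofactors, 2 were called lower, the ETS factor Etv1 (-0.998, SE 0.19, limma adjusted p = 0.0129) and the zinc-finger factor Zfp148 (-0.70, SE 0.18, limma adjusted p = 0.0253), and the other of the 3 largest, the glucose-responsive Mlxipl, was not (-0.93, SE 0.46, limma adjusted p = 0.167). Etv1 was also called after median-of-ratios scaling. Of 9 tested endocrine progenitor and pan-endocrine factors 1 was called lower, Myt1l (-0.69, SE 0.23, limma adjusted p = 0.0491), and 0 after that scaling. Of 5 tested α- and δ-cell factors 0 were called, with a median of -0.17. Of 7 tested hepatocyte nuclear and forkhead factors 0 were called on the FPKM scale, and Hnf4a was called higher after median-of-ratios scaling.

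All 6 acinar transcription factors had higher means in cKO, with a median of 0.81, and 0 were called. The largest was Rbpjl, the acinar partner of Ptf1a (1.78, SE 0.64, limma adjusted p = 0.0937). Of the acinar enzyme markers 21 of 21 had higher means and 1 (Amy1) was called. Endothelial markers were called lower in 7 of 8 and α-cell markers in 4 of 8 tested, against 12.8% of all genes. After median-of-ratios scaling 2 of 8 and 0 of 8 were called, and per insulin transcript 0 of either. In OE against Ctrl 0 factors of any of these 5 transcription factor lists were called, and 5 of the 6 acinar factors had lower means, with a median of -0.58. How far these other cell types bear on the 9 factors was not tested.

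Within groups, the factors varied together to different degrees. The correlation of log2 levels across the 16 libraries, after median-of-ratios scaling and removal of the group means, ranged from 0.148 to 0.973 over the 36 pairs with a median of 0.662. Without Ctrl3, whose factors were all low, the range was -0.227 to 0.897 and the median 0.490. Isl1 and Pax6 were the pair with the highest correlation in both. These libraries share the spread in acinar share, and the correlations are descriptions.

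The gene most like each factor by this measure, among 5783 genes averaging 5 FPKM or more in both tables, was as follows. For Pdx1 it was Prlr, the prolactin receptor (Pearson r 0.948, Spearman rho 0.924, n = 16 libraries), and r was 0.944 without Ctrl3. Prlr measured 63.1, 21.6, 35.2 and 34.1 FPKM in Flox16, Flox17, Flox20 and Flox21, so that it was highest in Flox16 and lowest in Flox17, as Pdx1 was. For Rfx6 it was Usp35 (r 0.979, rho 0.909), for Pax6 Scamp5 (r 0.983, rho 0.879) and for Isl1 Fbxo2 (r 0.975, rho 0.765). For Nkx2-2 it was Armcx1 (r 0.961), for Neurod1 Dst (r 0.960), for Nkx6-1 Bace2 (r 0.95) and for Mafa Dnajc13 (r 0.940). Foxa2 had the weakest best match, Jade2 (r 0.855, rho 0.788). The next 2 matches were Tspyl4 and Leprotl1 for Pdx1, Plekha6 and Lrrc10b for Rfx6, and, for Isl1, Pax6 and the sulfonylurea receptor Abcc8.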

How the data were processed

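The authors deposited FPKM values, calculated from islet RNA-seq reads, in 1 table for the Flox and cKO libraries and another for the Ctrl and OE libraries. The submitters' notes name the genome build mm10. The aligner, counting tool and strand setting are not given in the sources used here. No read counts were used, so no counting error could be computed. Genes averaging 0.5 FPKM or more were tested on log2(FPKM + 0.5) with limma 3.58.1 in R 4.3.3, using its trended and robust empirical Bayes option. Each table was fitted as a whole, P-values were two-sided, and adjustment was by Benjamini-Hochberg over all genes tested. Fold changes are on this scale. The calling was tested on simulated data.

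The 9 genes and all lists were chosen with earlier results of these data known. Named genes are the 9 factors, insulin genes, Vtcn1, up to 3 genes per list by absolute log2 fold change, called genes of a list, and 3 matches per factor. Genes called in a list beyond these 3 were named after their values were seen. Alternatives were other pseudocounts, filters, scalings, fits and subsets of libraries. A result for 1 listed gene is not reported here.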

Additional observations from a re-analysis of the deposited data

Results flagged for a closer look

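Of 72 groups of 4 libraries tested for a single value far from the others, over the 9 factors and 2 scales, 3 were flagged, and chance flags about 1 in 20 groups. Mafa in cKO8 (179.9 FPKM, next 147.8) and Neurod1 in cKO8 (49.45 FPKM, next 35.8) lay above the other 3 cKO libraries. The acinar share of cKO8 was 36.7%, the lowest of its group. Pax6 per 100000 insulin FPKM in Ctrl5 (22.06, next 16.5) lay above the other 3 Ctrl libraries, and Ctrl5 had the highest share of α-cell markers, 13.6%. The part of these shares in the values was not tested.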

How the results depend on the processing

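There were 207 alternative values of single factors in each comparison. In cKO against Flox 145 kept direction and side of the threshold, 27 kept direction and passed the threshold, and 35 changed direction. In OE against Ctrl 167 kept both and 40 changed direction. Values that changed direction were counted as such even when called. Examples are Mafa per insulin transcript without Flox16, and Rfx6 in OE with only Ctrl1 and Ctrl5 as controls. The alternatives that use only some Flox or Ctrl libraries by acinar share were chosen after the data were seen. So were those per insulin transcript without 1 library and the ratios between factors without 1 library. Depth in reads is unknown, so no limit from counting can be set. The causes of the differences below were not tested. Leaving out each library in turn gave 0 to 7 factors and 19 to 7092 genes called in cKO against Flox. The fold changes, as log2, ran from -0.41 to 0.097 for Mafa and from -0.14 to 0.17 for Nkx2-2. In OE against Ctrl it gave 0 factors and 4 to 5 genes. The labels number the libraries 1 to 4 in each group without a shared source, and correlations of same-numbered libraries ranged from -0.215 to 0.122, with 1 of the 4 numbers in OE against Ctrl and 0 in cKO against Flox correlating best with its own number. By the labels the samples share only a number, and correlations among 4 libraries per group cannot show whether they were paired. With the replicate number as a block, 4 of 9 factors (Neurod1, Isl1, Pax6 and Rfx6) were called in cKO against Flox, all lower, and 0 in OE against Ctrl. That fit called 2744 of 11804 genes in cKO against Flox, 2455 of them lower.

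Factors called in cKO against Flox were 0 as reported, and 2 with a minimum average of 1 FPKM, 7 with the 3 heatmap libraries per group and 3 per insulin transcript without Flox16. The 2 with a minimum average of 1 FPKM were Isl1 and Pax6, both lower, when 1704 of 10668 genes were called lower. Genes called in cKO against Flox were 1631 as reported, and 0 with every gene above 0 FPKM, 274 after median-of-ratios scaling, 753 per insulin transcript, 134 after scaling by non-acinar FPKM, 0 with the acinar share as a covariate, 7800 with the 3 heatmap libraries per group, 3 with only Flox16 and Flox17 as controls, 0 per insulin transcript with only Flox16 and Flox17, 3915 per insulin transcript without Flox16, 917 per insulin transcript without Flox17 and 155 with an absolute log2 value over 1 also required. In cKO against Flox the values on the other side of zero from those reported, as log2 fold changes, were these. With the 3 heatmap libraries per group, they were -0.031 for Pdx1 and -0.27 for Nkx2-2. After median-of-ratios scaling, it was 0.31 for Mafa. Per insulin transcript, they were 0.49 for Mafa, 0.18 for Nkx6-1, 0.044 for Pax6 and 0.15 for Foxa2. After scaling by non-acinar FPKM, they were 0.32 for Mafa and 0.0047 for Nkx6-1. With the acinar share as a covariate, they were 0.64 for Mafa, 0.31 for Nkx6-1, 0.35 for Neurod1, 0.057 for Isl1, 0.065 for Pax6, 0.20 for Rfx6 and 0.13 for Foxa2. With only Flox16 and Flox17 as controls, it was 0.16 for Mafa. Per insulin transcript with only Flox16 and Flox17, they were 0.51 for Mafa, 0.19 for Nkx6-1, 0.19 for Neurod1, 0.065 for Isl1, 0.091 for Pax6 and 0.14 for Foxa2. Per insulin transcript without Flox16, they were 0.75 for Mafa, 0.35 for Nkx6-1, 0.0079 for Isl1, 0.082 for Pax6 and 0.20 for Foxa2. Per insulin transcript without Flox17, they were 0.22 for Mafa, 0.011 for Nkx6-1 and 0.099 for Foxa2.

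Factors called in OE against Ctrl were 0 as reported, and 1 with only Ctrl1 and Ctrl5 as controls. Genes called in OE against Ctrl were 4 as reported, and 13 with every gene above 0 FPKM, 7 after median-of-ratios scaling, 9 after scaling by non-acinar FPKM, 524 with the acinar share as a covariate, 2993 with only Ctrl1 and Ctrl5 as controls, 1401 per insulin transcript with only Ctrl1 and Ctrl5 and 2 per insulin transcript without Ctrl5. In OE against Ctrl the values on the other side of zero from those reported, as log2 fold changes, were these. Per insulin transcript, they were -0.37 for Pdx1, -0.28 for Mafa, -0.17 for Nkx2-2, -0.18 for Neurod1, -0.34 for Isl1, -0.072 for Pax6, -0.41 for Rfx6 and -0.36 for Foxa2. With only Ctrl1 and Ctrl5 as controls, they were -0.059 for Pdx1, -0.16 for Mafa, -0.18 for Nkx2-2, -0.029 for Neurod1, -0.32 for Isl1, -0.037 for Pax6 and -0.42 for Rfx6. Per insulin transcript with only Ctrl1 and Ctrl5, they were -0.19 for Pdx1, -0.29 for Mafa, -0.31 for Nkx2-2, -0.16 for Neurod1, -0.45 for Isl1, -0.17 for Pax6, -0.55 for Rfx6 and -0.10 for Foxa2. Per insulin transcript without Ctrl5, they were -0.47 for Pdx1, -0.38 for Mafa, -0.0696 for Nkx2-2, -0.22 for Neurod1, -0.20 for Isl1, -0.33 for Rfx6 and -0.37 for Foxa2. Per insulin transcript without Ctrl3, they were -0.31 for Pdx1, -0.31 for Mafa, -0.23 for Nkx2-2, -0.17 for Neurod1, -0.42 for Isl1, -0.11 for Pax6, -0.47 for Rfx6 and -0.22 for Foxa2. With the acinar share as a covariate, they were -0.075 for Isl1 and -0.16 for Rfx6.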

Other observations

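Taken as a percentage of the summed FPKM of the 9 factors, the make-up of the set was 7.80 ± 1.75% Pdx1 in Flox and 11.8 ± 1.06% in cKO libraries (SD, n = 4 each). Rfx6 made up 7.19 ± 2.34% in Flox and 4.36 ± 0.396% in cKO. Nkx6-1 made up 15.5 ± 2.16% in Ctrl and 20.6 ± 0.433% in OE libraries. Neurod1 made up 8.03 ± 0.323% in Ctrl and 8.14 ± 0.119% in OE, although its FPKM in the same Ctrl libraries ran from 5.85 to 63.9. These percentages were not tested.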
